A study of Mus musculus with 12 samples.

Results

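The 10 genes described here lie on mouse chromosome 16, all on the same side of App, which encodes the amyloid precursor protein and is edited in 1 of the genotypes of this study. The genes are Timmdc1, Poglut1, Upk1b, Ccdc80, Slc35a5, Ift57, Nfkbiz, Senp7, Cldnd1 and Cpox, 10 of 18193 genes named on the arrays and 10 of the 593 measured genes of chromosome 16. They were chosen from the genotype differences measured on these same arrays, so every genotype difference given for them is a description without a test. All 27 probe sets that the platform annotation assigns to 1 of these symbols alone were used, from 1 for Timmdc1 and for Poglut1 to 5 for Slc35a5, and probe sets of a gene are numbered in order of their identifier.

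The series holds 12 Affymetrix expression arrays of female mice aged 38 to 40 weeks, 3 for each of 4 groups. APPsα-DM mice (APPα/αAPLP2-/-) carry the edited App on both alleles and lack APLP2, a relative of APP. APLP2-KO mice (APLP2-/-) lack APLP2 as well and have unedited App, so both genotypes share the loss of APLP2, and no wild-type array was analysed here. The background strain is C57BL/6 after 6 generations of back-crossing, per the labels. Prefrontal cortex and hippocampus were taken from each genotype, with 3 mice per genotype in the series' design. The edited allele is generally described as encoding only the secreted ectodomain APPsα. The labels do not say which array came from which mouse.

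As background, an allele made by gene targeting stays linked to the chromosome on which it was made. Back-crossing replaces unlinked chromosomes quickly and the stretches beside the edited gene slowly, so mice that differ in an edited gene can also differ in the alleles of its neighbours. A short-oligonucleotide probe set reads both the amount of a transcript and its match to the probe sequence. Which alleles of the 10 genes these mice carried was not tested. The genes have unrelated functions, in mitochondria, protein glycosylation, membranes and matrix, cilia and the nucleus.

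The stretches of 250 bases before the start of 4 of the genes are shown. Timmdc1 and Poglut1 are direct neighbours with opposite genotype differences. Slc35a5 and Ift57 each had a bright probe set that separated the genotypes in both tissues. The same held for Senp7, Cldnd1 and Cpox, whose stretches are not shown and held none of the motifs marked here. The sequences are those of RefSeq on GRCm38.p6, read 5′ to 3′ on the strand of the gene, and 7 of the 10 genes are in that table. Capitals mark the GC box GGGCGG, the CCAAT box CCAAT and the cyclic AMP response element TGACGTCA, each on either strand.
Timmdc1, chr16:38522664-38522913, minus strand: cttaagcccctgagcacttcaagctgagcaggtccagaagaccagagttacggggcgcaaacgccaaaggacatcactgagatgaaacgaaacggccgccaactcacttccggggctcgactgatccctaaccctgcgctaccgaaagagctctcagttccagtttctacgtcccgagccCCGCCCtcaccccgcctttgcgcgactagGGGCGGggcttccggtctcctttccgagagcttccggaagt
Poglut1, chr16:38550257-38550506, minus strand: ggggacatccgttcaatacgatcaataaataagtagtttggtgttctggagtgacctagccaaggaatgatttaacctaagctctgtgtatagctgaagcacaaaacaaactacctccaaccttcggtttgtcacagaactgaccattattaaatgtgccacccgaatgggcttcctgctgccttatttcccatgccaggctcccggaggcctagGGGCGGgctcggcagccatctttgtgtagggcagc
Slc35a5, chr16:45158674-45158923, minus strand: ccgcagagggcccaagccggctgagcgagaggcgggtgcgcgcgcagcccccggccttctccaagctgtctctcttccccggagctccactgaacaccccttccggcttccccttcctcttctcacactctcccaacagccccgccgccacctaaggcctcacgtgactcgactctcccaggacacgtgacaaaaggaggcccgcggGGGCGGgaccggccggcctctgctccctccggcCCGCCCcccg
Ift57, chr16:49699044-49699293, plus strand: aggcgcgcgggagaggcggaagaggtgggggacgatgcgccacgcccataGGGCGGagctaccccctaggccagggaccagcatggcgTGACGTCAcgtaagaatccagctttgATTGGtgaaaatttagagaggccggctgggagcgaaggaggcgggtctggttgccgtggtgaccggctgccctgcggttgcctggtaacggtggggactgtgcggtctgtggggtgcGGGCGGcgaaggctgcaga
The GC box was in 4 of the 7 genes with a sequence, those shown, against 32.7% of 32851 promoters of the same length. Ift57 was the 1 gene with the cyclic AMP response element, which 1.55% of promoters hold, and the 1 gene with a CCAAT box, held by 33.8%. The TATA box TATAAA was in 0 of the 7 genes and in 12.4% of all promoters. The 4 windows held 20, 7, 23 and 22 CG dinucleotides in the order printed, against a median of 6. Of the windows not shown, the 3 of Senp7 held 0, 12 and 15, that of Cldnd1 8 and that of Cpox 11. These letters are of the C57BL/6J reference, and none of them was measured on the arrays.

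Values are on the log2 scale of the deposited RMA signal, so that a difference of 1 is a doubling. The array medians lay between 5.86 and 5.91, and 22 of the 27 probe sets had a mean of at least 5. App itself checked the genotype labels: the App probe set with the largest difference had means of 7.96 ± 0.25 for APPsα-DM and 12.63 ± 0.13 for APLP2-KO (SD, n = 3 each) in cortex. In hippocampus its means were 7.93 ± 0.06 for APPsα-DM and 12.53 ± 0.06 for APLP2-KO. A brighter App probe set had cortex means of 11.80 ± 0.06 for APPsα-DM and 13.46 ± 0.07 for APLP2-KO. Its hippocampus means were 11.55 ± 0.10 for APPsα-DM and 13.46 ± 0.02 for APLP2-KO. The other App probe sets were dim, with differences of -0.11 and -0.35 in cortex and 0.05 and -0.19 in hippocampus. Whether the probes of these sets lie in the edited part was not analysed here. The tissue labels were borne out by markers: in hippocampus against cortex, 6 of 6 hippocampal neuron genes were higher and 5 of 5 measured neocortical neuron genes lower (limma, adjusted p under the threshold of 0.05). Choroid plexus signal varied widely between arrays of 1 group: the summed linear signal of 8 markers ran from 583 to 19812 in APPsα-DM cortex, from 672 to 17699 in APLP2-KO cortex, from 4010 to 23705 in APPsα-DM hippocampus and from 1950 to 20323 in APLP2-KO hippocampus.

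Between the genotypes, most of the 27 probe sets read lower in APPsα-DM. In cortex, all 3 APPsα-DM arrays lay below all 3 APLP2-KO arrays for 14 probe sets and above them for 3, so that 17 of 27 did not overlap. Over all 45037 probe sets 8.73% did not overlap, 4.66% lower and 4.07% higher. In hippocampus 11 lay below and 3 above, 14 of 27 without overlap, against 9.88% of all probe sets, 5.78% lower and 4.10% higher. For 13 probe sets of 9 genes the arrays separated in the same direction in both tissues, 10 lower and 3 higher, against 0.686% of all probe sets. Since these genes were picked for such differences, nothing is read from those shares. Over the 27 probe sets the median difference was -0.144 in cortex and -0.137 in hippocampus, against 0.004 and -0.003 over all probe sets. The 3 that read higher in both tissues belong to Timmdc1, Ccdc80 and Ift57, and the gene without a probe set that separated in both tissues is Nfkbiz.

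**Figure D1:**
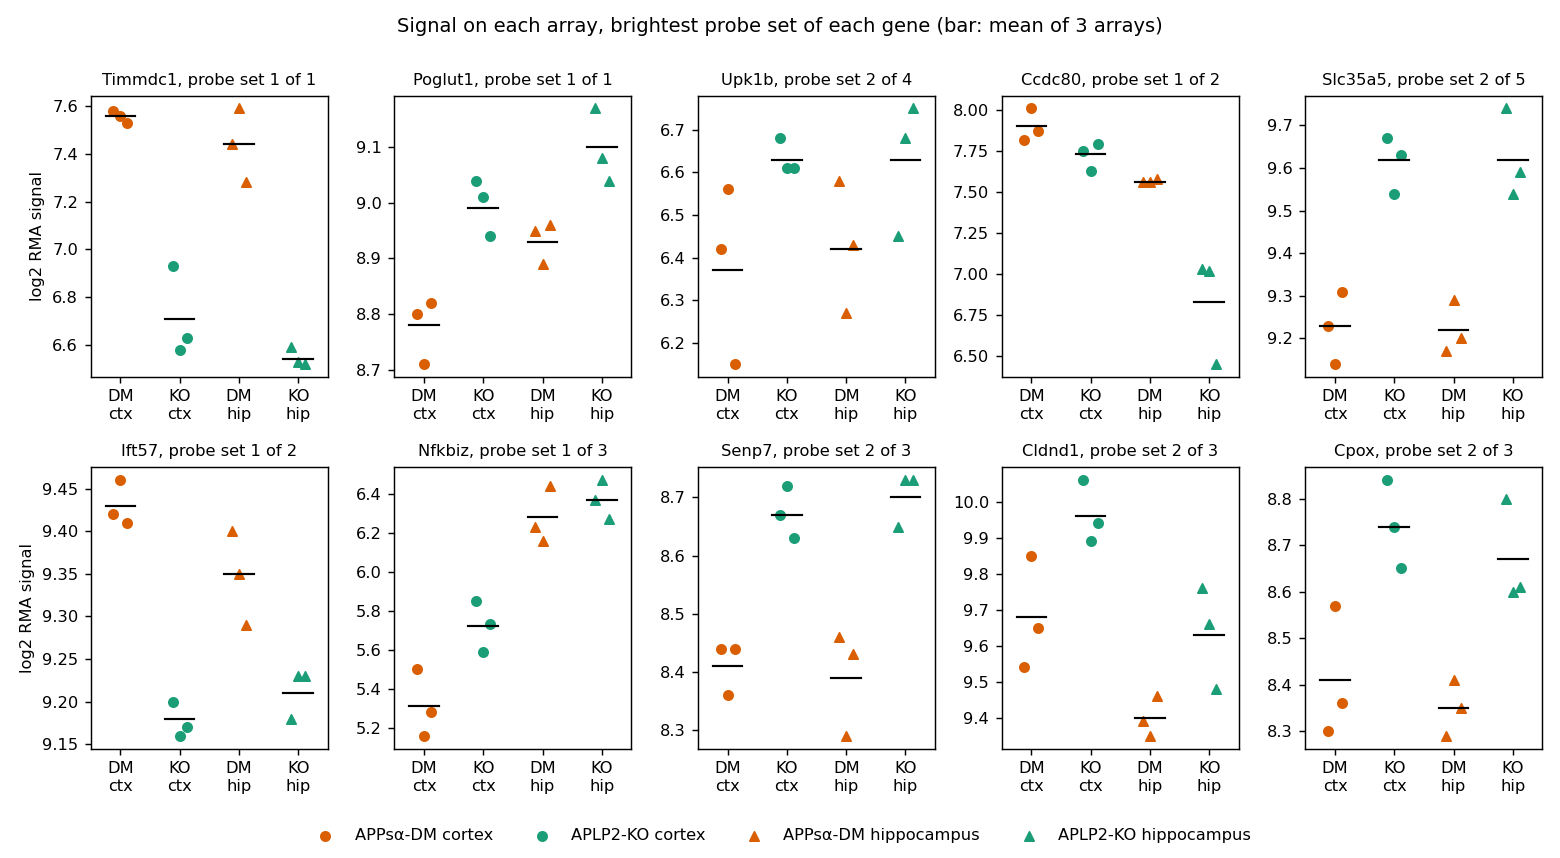
Log2 RMA signal (vertical axis, own range in each panel) on each of the 12 arrays for the brightest probe set of each gene, by group, with bars at the means of 3 arrays; DM is APPsα-DM, KO is APLP2-KO, ctx is cortex and hip is hippocampus. Timmdc1, Ccdc80 and Ift57 lie higher in APPsα-DM in both tissues, and Poglut1, Slc35a5, Senp7, Cldnd1 and Cpox lower without overlap.

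Of the genes with a mitochondrial role, Timmdc1 and Cpox went in opposite directions. Timmdc1, an assembly factor of respiratory complex I, is read by 1 probe set (1420329_at). It was 7.58, 7.56 and 7.53 in APPsα-DM cortex, against 6.93, 6.58 and 6.63 in APLP2-KO cortex, a difference of 0.84 ± 0.10 (moderated SE) or 1.80-fold. In hippocampus it was 7.44, 7.59 and 7.28 in APPsα-DM, against 6.59, 6.53 and 6.52 in APLP2-KO, a difference of 0.89 ± 0.10 or 1.85-fold. The lowest of the 6 APPsα-DM arrays lay above the highest of the 6 APLP2-KO arrays, and APLP2-KO cortex 1 was the APLP2-KO array nearest to them.

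Cpox encodes coproporphyrinogen oxidase, an enzyme of haem synthesis. Its probe set 2 (1422493_at) read 8.30, 8.57 and 8.36 in APPsα-DM cortex, against 8.84, 8.74 and 8.65 in APLP2-KO cortex, a difference of -0.34 ± 0.09. In hippocampus it read 8.29, 8.41 and 8.35 in APPsα-DM, against 8.80, 8.60 and 8.61 in APLP2-KO, a difference of -0.32 ± 0.09. The groups did not overlap in either tissue. Probe set 1 (1422492_at), assigned to the same source sequence in the platform annotation, differed by less. In cortex it had means of 7.53 ± 0.01 for APPsα-DM and 7.67 ± 0.05 for APLP2-KO, without overlap. In hippocampus it had means of 7.78 ± 0.18 for APPsα-DM and 7.85 ± 0.15 for APLP2-KO (SD, n = 3 each), with overlap. Probe set 3 was dim, at a mean of 3.22 over the 12 arrays, and overlapped in both tissues.

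Both genes of the glycosylation machinery read lower in APPsα-DM. Poglut1, which adds glucose to the epidermal growth factor repeats of Notch receptors in the endoplasmic reticulum, was 8.80, 8.71 and 8.82 in APPsα-DM cortex, against 9.04, 9.01 and 8.94 in APLP2-KO cortex (-0.22 ± 0.06). It was 8.95, 8.89 and 8.96 in APPsα-DM hippocampus, against 9.17, 9.08 and 9.04 in APLP2-KO hippocampus (-0.16 ± 0.06). The groups stood apart in both tissues, by less than the difference seen for Timmdc1.

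Slc35a5 belongs to the family of Golgi transporters for nucleotide sugars, and its 5 probe sets all had differences below 0 in both tissues. Probe set 2 (1419971_s_at) read 9.23, 9.14 and 9.31 in APPsα-DM cortex, against 9.67, 9.54 and 9.63 in APLP2-KO cortex, a difference of -0.39 ± 0.08. In hippocampus it read 9.17, 9.29 and 9.20 in APPsα-DM, against 9.74, 9.54 and 9.59 in APLP2-KO, a difference of -0.40 ± 0.08, or 1.32-fold lower. The 2 tissues gave almost the same means in each genotype. Probe sets 4 and 5 (1423457_at and 1423458_at), which share a source sequence, separated the genotypes as well, with differences of -0.46 ± 0.09 and -0.47 ± 0.11 in cortex and -0.21 ± 0.09 and -0.36 ± 0.11 in hippocampus. Without APPsα-DM cortex 2 and APLP2-KO cortex 3, the cortex arrays highest in the choroid plexus gene Ttr, the cortex difference of probe set 5 was -0.28. Probe sets 1 and 3, which share the source sequence of probe set 2, overlapped in both tissues. They were near the dim end, at means of 5.22 and 4.99 over the 12 arrays.

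**Figure D2:**
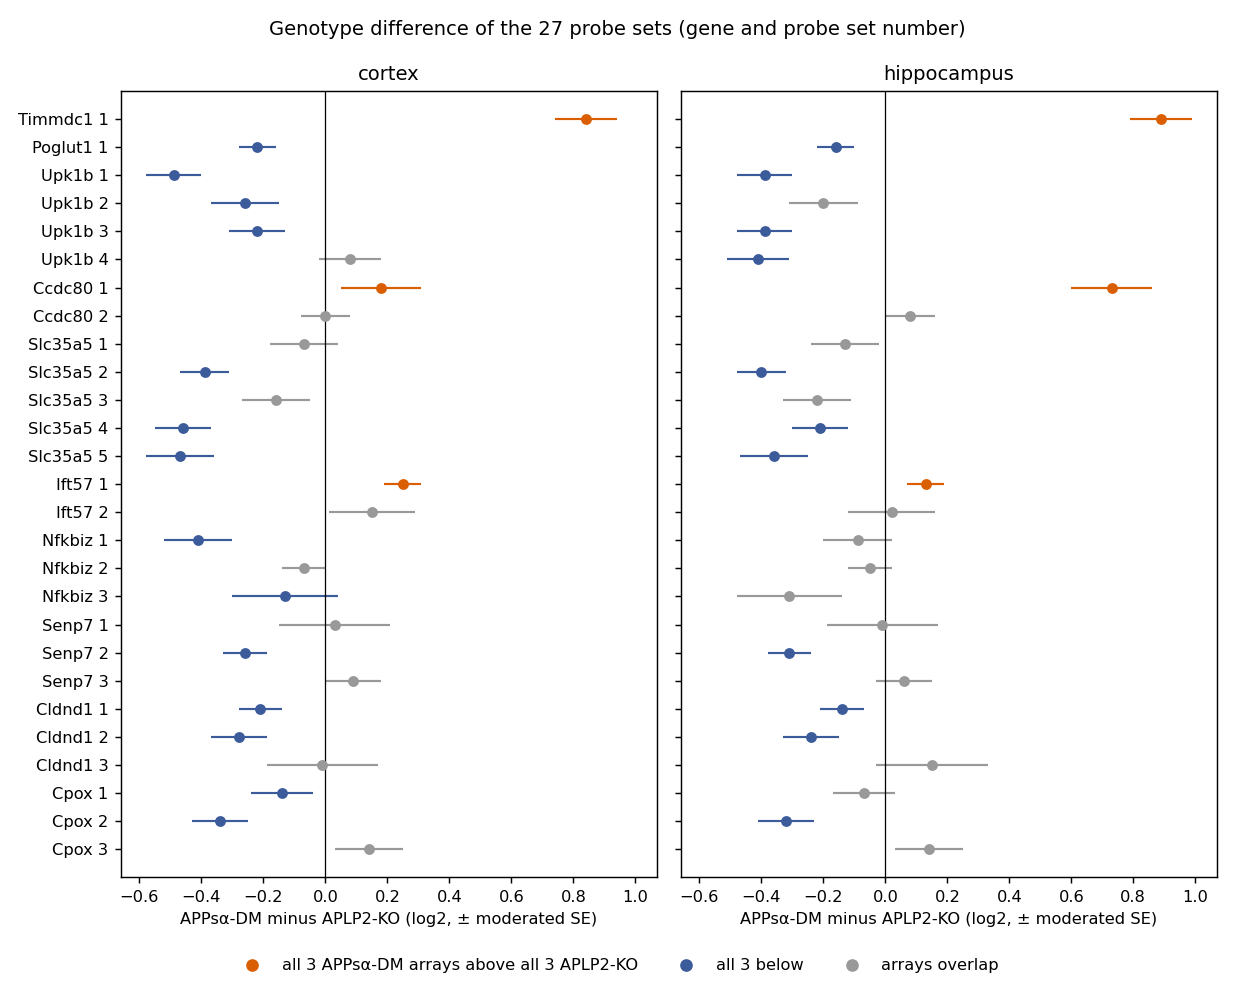
Difference between APPsα-DM and APLP2-KO (log2, horizontal axis) for each of the 27 probe sets, in cortex on the left and hippocampus on the right, with the moderated standard error as bars and 3 arrays per group. Timmdc1 is at 0.84 and 0.89, and probe sets of a gene differ in how far they lie from 0, as for Ccdc80 and Senp7.

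Among the genes of membrane and matrix, Upk1b and Cldnd1 read lower in APPsα-DM, and Ccdc80 read higher. Upk1b encodes a tetraspanin known from the surface plaques of bladder epithelium. Its probe set 1 (1435831_at) was 4.65, 4.44 and 4.58 in APPsα-DM cortex, against 4.92, 5.05 and 5.16 in APLP2-KO cortex (-0.49 ± 0.09), and 4.58, 4.54 and 4.66 in APPsα-DM hippocampus, against 4.91, 5.15 and 4.91 in APLP2-KO hippocampus (-0.39 ± 0.09). All 12 values are below the array medians, yet the 6 APPsα-DM arrays lay below the 6 APLP2-KO arrays. Probe set 3 separated the genotypes likewise, by -0.22 ± 0.09 in cortex and -0.39 ± 0.09 in hippocampus. It comes from the same source sequence as probe set 1, and its suffix (_x_at) marks probes that may bind other transcripts, which also holds for probe set 2. Probe set 4 overlapped in cortex (0.08 ± 0.10) and separated in hippocampus (-0.41 ± 0.10). Without APPsα-DM cortex 3, the cortex differences of probe sets 2 and 3 were both -0.14, against -0.26 and -0.22 with it.

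Cldnd1 encodes a membrane protein with a claudin domain. Probe set 2 (1431293_a_at) was 9.54, 9.85 and 9.65 in APPsα-DM cortex, against 10.06, 9.89 and 9.94 in APLP2-KO cortex (-0.28 ± 0.09), and 9.39, 9.35 and 9.46 in APPsα-DM hippocampus, against 9.76, 9.66 and 9.48 in APLP2-KO hippocampus (-0.24 ± 0.09). The gap between the groups was narrow, 9.85 against 9.89 in cortex and 9.46 against 9.48 in hippocampus. Probe set 1 differed by -0.21 ± 0.07 and -0.14 ± 0.07, again without overlap. Probe set 3 overlapped, with differences of -0.01 ± 0.18 in cortex and 0.15 ± 0.18 in hippocampus.

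Ccdc80 encodes a secreted protein of the extracellular matrix. Its probe set 1 (1424186_at) was 7.82, 8.01 and 7.87 in APPsα-DM cortex, against 7.75, 7.63 and 7.79 in APLP2-KO cortex, a difference of 0.18 ± 0.13. In hippocampus it was 7.56, 7.56 and 7.58 in APPsα-DM, against 7.03, 7.02 and 6.45 in APLP2-KO, a difference of 0.73 ± 0.13 or 1.66-fold. The groups did not overlap in either tissue, and APLP2-KO hippocampus 3 stood below the other two of its group. Probe set 2 (1424187_at), from the same source sequence, overlapped in both tissues, reading 0.00 ± 0.08 apart in cortex and 0.08 ± 0.08 in hippocampus. Whether the genotype difference itself differed between the tissues was not tested, because the genes were chosen on these differences.

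Markers of meninges, vessels and choroid plexus had genotype differences mostly above 0 in hippocampus too. For leptomeninges and fibroblasts, 7 of 10 markers lay above 0 with a median of 0.28, and their summed linear signal ran from 2397 to 6986 in APPsα-DM and from 2935 to 3285 in APLP2-KO hippocampus. The highest of these sums was that of APPsα-DM hippocampus 1, where Ccdc80 probe set 1 was at 7.56, as in APPsα-DM hippocampus 2 with the lowest. For endothelial cells 6 of 6 markers lay above 0 with a median of 0.33 and sums from 1416 to 1690 in APPsα-DM and from 1078 to 1341 in APLP2-KO hippocampus, and for choroid plexus 8 of 8 did with a median of 1.09. In cortex the medians of these lists were 0.08, 0.12 and 0.13. None of their genes passed the test between the genotypes, and none had a mean below 4.64 over the 12 arrays. Their part in the Ccdc80 difference was not tested. In tissue pieces, a larger number of cells of a type and more RNA per cell cannot be told apart.

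Ift57 encodes a subunit of intraflagellar transport complex B, which carries cargo along cilia. Its probe set 1 (1418929_at) was 9.42, 9.46 and 9.41 in APPsα-DM cortex, against 9.20, 9.16 and 9.17 in APLP2-KO cortex, a difference of 0.25 ± 0.06. In hippocampus it was 9.40, 9.35 and 9.29 in APPsα-DM, against 9.18, 9.23 and 9.23 in APLP2-KO, a difference of 0.13 ± 0.06. The 6 APPsα-DM arrays lay above the 6 APLP2-KO arrays. Probe set 2 was dim, at a mean of 4.07, and overlapped in both tissues. Ependymal markers, genes of a ciliated cell layer, lay above 0 for 4 of 5 in cortex and 5 of 5 in hippocampus, with medians of 0.11 and 0.41. Their summed linear signal overlapped in both tissues, at 436 to 612 in APPsα-DM cortex and 390 to 575 in APLP2-KO cortex, and 683 to 864 in APPsα-DM hippocampus and 528 to 715 in APLP2-KO hippocampus. Their part in the Ift57 difference was not tested.

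The nuclear regulators differed least evenly. Senp7, a protease that takes the small modifier SUMO off proteins, had 1 probe set that separated the genotypes and 2 that did not. Probe set 2 (1436860_at) was 8.44, 8.36 and 8.44 in APPsα-DM cortex, against 8.67, 8.72 and 8.63 in APLP2-KO cortex (-0.26 ± 0.07), and 8.46, 8.29 and 8.43 in APPsα-DM hippocampus, against 8.65, 8.73 and 8.73 in APLP2-KO hippocampus (-0.31 ± 0.07). Probe set 3 (1438413_at), at a comparable brightness, had cortex means of 8.05 ± 0.15 for APPsα-DM and 7.97 ± 0.06 for APLP2-KO, and hippocampus means of 8.25 ± 0.13 for APPsα-DM and 8.19 ± 0.07 for APLP2-KO (SD, n = 3 each). Its groups overlapped in both tissues. The reading of Senp7 thus depended on the probe set. Probe set 1 overlapped as well (0.03 ± 0.18 in cortex, -0.01 ± 0.18 for the hippocampus).

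Nfkbiz encodes IκBζ, a nuclear partner of NF-κB that is induced in inflammation. Its probe set 1 (1417483_at) was 5.50, 5.16 and 5.28 in APPsα-DM cortex, against 5.85, 5.59 and 5.73 in APLP2-KO cortex, a difference of -0.41 ± 0.11. In hippocampus it was 6.23, 6.16 and 6.44 in APPsα-DM, against 6.37, 6.47 and 6.27 in APLP2-KO, where the groups overlapped and the difference was -0.09 ± 0.11. Probe set 2 overlapped in both tissues, at -0.07 ± 0.07 and -0.05 ± 0.07. Probe set 3 was dim, at a mean of 3.53, with a cortex difference of -0.13 ± 0.17 and a hippocampus difference of -0.31 ± 0.17. The cortex value was -0.08 without APLP2-KO cortex 2. The hippocampus value was -0.06 without APLP2-KO hippocampus 3, which read 4.36 against 3.51 and 3.67 in the other APLP2-KO arrays, and -0.48 without APLP2-KO hippocampus 1. Microglial markers had medians of 0.02 in cortex and -0.03 in hippocampus.

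Along chromosome 16 the 10 genes lay in the order Timmdc1, Poglut1, Upk1b, Ccdc80, Slc35a5, Ift57, Nfkbiz, Senp7, Cpox and Cldnd1, followed by App, in the gene order of GRCm38.p6. Between Timmdc1 and App stood 133 measured genes, and between Cldnd1 and App 40. The stretches before their starts have lowest coordinates of 38522664 for Timmdc1, 58727660 for Cldnd1 and 85173708 for App. Timmdc1 and Poglut1 are adjacent, as are Ccdc80 and Slc35a5, and in both pairs the first read higher and the second lower in APPsα-DM. Between Cpox and Cldnd1 stands 1 measured gene, Gpr15. From Timmdc1 to Cldnd1 there were 94 measured genes with 198 probe sets, of which 17 (8.59%) separated the genotypes in the same direction in both tissues, 11 lower and 6 higher. The 10 genes supply 13 of these 17. Of the 171 probe sets of the other 84 genes, 4 did (2.34%), named after their values were seen. They were 1 each of Cd47 (0.11 in cortex and 0.15 in hippocampus) and Tomm70a (0.25 and 0.19), and 2 of Pcnp, of which 1 was higher (0.09 and 0.09) and 1 lower (-0.28 and -0.22). The share was 0.711% of 703 probe sets before Timmdc1, 1.14% of 88 between Cldnd1 and App and 1.16% of 258 beyond App, against 0.686% of all probe sets. The stretch from Timmdc1 to Cldnd1 is bounded by genes picked for such differences. Nothing is therefore read from its 8.59% or its 2.34%.

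Of the genes directly beside the 10, 11 that are not among them had a probe set. Taking the brightest of each, 3 did not overlap in cortex (B4galt4, Cd47 and Trmt10c), 3 did not in hippocampus (Tex55, Cd47 and Nxpe3), and Cd47 alone did so in both. The shares over all probe sets were 8.73% in cortex, 9.88% in hippocampus and 0.686% in the same direction in both. With 11 genes, nothing is read from these counts. Next to Senp7, Trmt10c differed by -0.29 ± 0.11 in cortex and -0.12 ± 0.11 in hippocampus, and next to Upk1b, B4galt4 by -0.23 ± 0.10 and -0.18 ± 0.10. Next to Timmdc1, Cd80 differed by -0.16 ± 0.11 in cortex and -0.02 ± 0.11 in hippocampus, and next to Poglut1, Tmem39a differed by -0.07 ± 0.08 and 0.01 ± 0.08. Next to Slc35a5, Atg3 differed by -0.04 ± 0.08 and -0.03 ± 0.08. The 10 genes were picked for their differences, so nothing is read from smaller ones in the genes beside them.

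**Figure D3:**
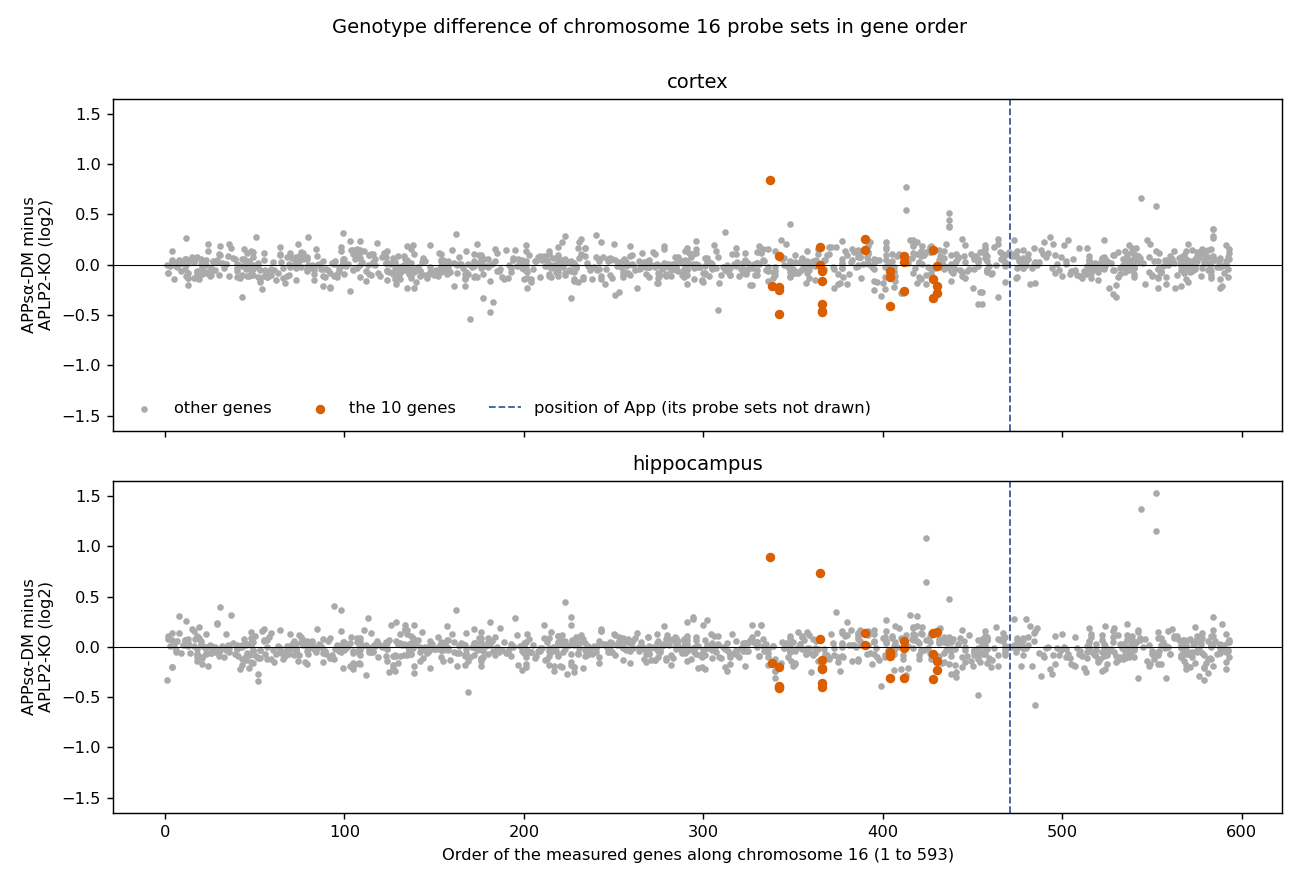
Difference between APPsα-DM and APLP2-KO (log2, vertical axis) for the probe sets of chromosome 16 against the rank of their gene along the chromosome (horizontal axis, 593 measured genes), in cortex above and hippocampus below; App is marked by the dashed line and its own probe sets are not drawn. The 10 genes (orange) span ranks 337 to 430, and Timmdc1 at rank 337 is the highest of their points in both tissues.

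Over the 12 arrays, the single-gene probe set most like Timmdc1 was that of Ift57 (Pearson r = 0.916), followed by Kdm5c (0.894) and Rbm45 (0.883). The most opposite were both bright App probe sets (-0.960 and -0.957) and Senp7 probe set 2 (-0.943). These coefficients are descriptions: the arrays fall into 2 genotypes that differ in Timmdc1, so r mostly reads how cleanly a probe set separates them. Among the other member probe sets, Upk1b 1 (-0.925) and Slc35a5 2 (-0.875) came next in size.

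The comparison of the tissues did not enter the choice of the genes, and its average over the genotypes is, as an estimate, independent of the genotype difference. Both use the same estimate of the spread per probe set, so the choice could still bear on the share that passed. Of the 27 probe sets, 8 (29.6%) of 5 genes passed (limma, Benjamini-Hochberg adjusted p under 0.05 over 45037 probe sets), 4 higher and 4 lower in hippocampus than in cortex, against 21.0% of all probe sets (10.3% higher and 10.7% lower). Nfkbiz was higher in hippocampus and Ccdc80 and Cldnd1 lower, while 1 probe set each of Senp7 and Cpox was higher. Timmdc1, Poglut1, Upk1b, Slc35a5 and Ift57 had no probe set past the threshold in this average. Within APPsα-DM 1 probe set passed, against 10.6% of all (5.21% higher and 5.42% lower), and within APLP2-KO 4 passed, 2 higher and 2 lower, against 12.6% (5.62% higher and 6.98% lower). Of these 4, Upk1b probe set 4 was higher in hippocampus by 0.33 ± 0.10 (limma, adjusted p = 0.0407) and was at -0.16 ± 0.10 within APPsα-DM. These within-genotype values hold part of the genotype difference that chose the genes. The count of 8 was 5 without APLP2-KO cortex 1 and 4 without the 2 cortex arrays highest in Ttr. The count of 1 was 2 without APLP2-KO hippocampus 3 or APPsα-DM hippocampus 1, and the count of 4 was 2 without APLP2-KO cortex 1, APLP2-KO cortex 2, APLP2-KO hippocampus 2 or APLP2-KO hippocampus 3.

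Nfkbiz probe set 1 averaged 6.32 ± 0.12 in hippocampus and 5.52 ± 0.26 in cortex (SD, n = 6 each), a difference of 0.81 ± 0.08 or 1.75-fold (limma, adjusted p = 7.33e-06), and all 6 hippocampus arrays lay above all 6 cortex arrays. It was also the 1 probe set called within APPsα-DM, at 0.97 ± 0.11 (limma, adjusted p = 7.51e-05). Within APLP2-KO it was higher by 0.65 ± 0.11 (limma, adjusted p = 0.00136). Probe set 2 was higher by 0.19 ± 0.05 (limma, adjusted p = 0.0156), again without overlap of the arrays. Dim probe set 3 was at 0.32 ± 0.12 (limma, adjusted p = 0.0785).

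Ccdc80 probe set 1 averaged 7.20 ± 0.45 in hippocampus and 7.81 ± 0.13 in cortex (SD, n = 6 each), a difference of -0.62 ± 0.09 (limma, adjusted p = 0.000304), with all 6 hippocampus arrays below the cortex arrays. Within APPsα-DM the difference was -0.34 ± 0.13 and within APLP2-KO -0.90 ± 0.13. Probe set 2 was lower by -0.23 ± 0.06 (limma, adjusted p = 0.0150). The fibroblast markers Dcn and Lum went the other way, higher in hippocampus by 2.34 and 0.93 (limma, adjusted p = 7.74e-09 and 0.000534). Of the 10 markers of that list, these 2 passed as higher and 0 passed as lower. Of those that did not pass, Col1a2, Igfbp2 and Slc22a6 lay below 0 and the others above it. Ependymal markers passed as higher in hippocampus for 5 of 5 and choroid plexus markers for 1 of 8. Endothelial markers passed as lower for 2 of 6 and microglial ones for 1 of 5. Their part in the tissue differences was not tested.

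Cldnd1 was lower in hippocampus by -0.30 ± 0.07 for probe set 2 (limma, adjusted p = 0.00528) and by -0.45 ± 0.13 for probe set 3 (limma, adjusted p = 0.0219), and probe set 1 was at -0.12 ± 0.05 (limma, adjusted p = 0.105). For Senp7, probe set 3, which did not separate the genotypes, was higher in hippocampus by 0.21 ± 0.06 (limma, adjusted p = 0.0359). Its probe set 2, which did, was at 0.00 ± 0.05 (limma, adjusted p = 0.974). For Cpox, probe set 1 was higher by 0.22 ± 0.07 (limma, adjusted p = 0.0380) and probe set 2 at -0.07 ± 0.06 (limma, adjusted p = 0.521). With a replicate block of genotype and number, Senp7 probe set 3 no longer passed (limma, adjusted p = 0.0822). The Senp7 and Cpox calls ended in 9 and 12 of the 18 alternative settings and that of Cldnd1 probe set 3 in 3. Among them, all 3 calls ended without APLP2-KO cortex 1.

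**Figure D4:**
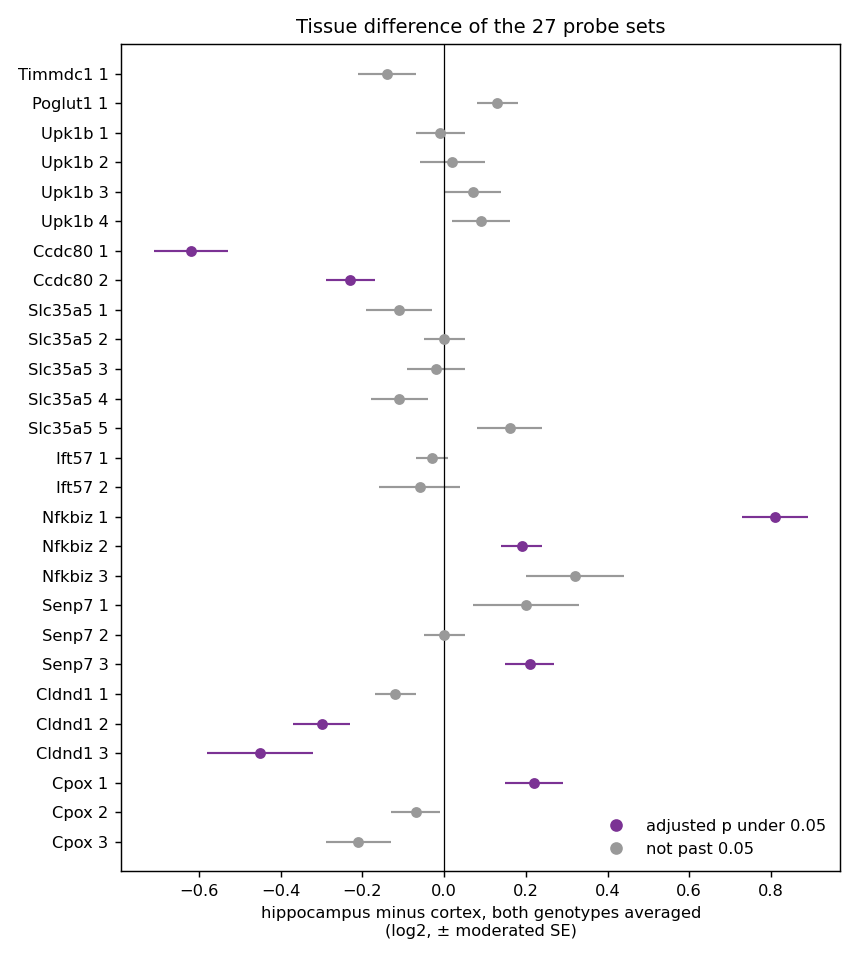
Difference between hippocampus and cortex averaged over both genotypes (log2, horizontal axis) for the 27 probe sets, with the moderated standard error as bars and 6 arrays per tissue. Purple points passed an adjusted p of 0.05: Nfkbiz at 0.81 and Ccdc80 at -0.62 lie farthest from 0.

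Timmdc1 averaged 6.99 ± 0.50 in hippocampus and 7.13 ± 0.48 in cortex (SD, n = 6 each), at -0.14 ± 0.07 (limma, adjusted p = 0.175), its spread being that between the genotypes. Slc35a5 probe set 2 averaged 9.42 ± 0.23 in hippocampus and 9.42 ± 0.22 in cortex. The 19 probe sets not past the threshold lay between -0.21 and 0.32.

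The partners of these genes were followed through 9 lists of the same pathways or families, 84 measured genes with 155 probe sets. Between the genotypes 0 of the 155 passed in cortex and 0 in hippocampus, with an adjusted p of 1.0 throughout (limma), where 4 of all 45037 (0.00888%) passed in each tissue. At an unadjusted p under 0.05 there were 2 in cortex and 4 in hippocampus, 1.29% and 2.58%, against 4.50% and 4.11% of all probe sets. Both in cortex were probe sets of Nfkbia, the NF-κB inhibitor IκBα, which like Nfkbiz probe set 1 read lower in APPsα-DM cortex, by -0.39 ± 0.10 and -0.32 ± 0.08. The other probe sets of Nfkbia were at -0.21 ± 0.10, -0.13 ± 0.08 and 0.05 ± 0.10 in cortex, the brightest of them at -0.13. In hippocampus the 4 were probe sets of Ttc26 (0.17 ± 0.06) and Ift81 (0.16 ± 0.07), both of intraflagellar transport, and Notch2 (0.24 ± 0.11) and Eogt (0.18 ± 0.07), a Notch receptor and an enzyme that glycosylates Notch. Other probe sets of Ift81 (0.07 and -0.03), Notch2 (-0.04) and Eogt (0.05 and -0.04) differed by less in hippocampus.

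The 14 complex I assembly factors beside Timmdc1, with 21 probe sets, had median genotype differences of 0.03 in cortex and 0.07 in hippocampus. A probe set of Ndufaf4, with the smallest p among them, was at 0.10 ± 0.06 and 0.13 ± 0.06. The other, slightly brighter Ndufaf4 probe set was at -0.03 ± 0.07 and 0.07 ± 0.07. The 7 other enzymes of haem synthesis had medians of -0.01 and 0.02, the 12 other SLC35 transporters of 0.02 and -0.01, the 6 other SUMO proteases of -0.04 and 0.02, the 4 other uroplakins of 0.05 and -0.05, and Srpx and Srpx2, the relatives of Ccdc80, of -0.11 and -0.05.

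Between the tissues, 28 of the 155 passed, 12 higher and 16 lower in hippocampus, which is 18.1% against 21.0% of all probe sets. Of intraflagellar transport, 4 of 22 probe sets were higher and 3 lower, with Ttc26 at 0.40 ± 0.04 (limma, adjusted p = 2.39e-05) and Ift27 at -0.29 ± 0.05 (0.00195). The other Ift27 probe sets were at -0.32 ± 0.07, which passed, and -0.21 ± 0.08, which did not. Of Notch and its glycosyltransferases, 3 of 26 were higher and 6 lower, with Notch2 at 0.57 ± 0.08 (limma, adjusted p = 0.000129) and Eogt at -0.25 ± 0.04 (0.000792). The other, dimmer Notch2 probe set was at -0.08 ± 0.06 and did not pass. Those of Eogt were at -0.27 ± 0.05, which passed, and -0.09 ± 0.08, which did not. Of NF-κB genes, Relb was higher by 0.37 ± 0.10 (limma, adjusted p = 0.0214), as Nfkbiz was, and Nfkbib, another inhibitor, lower by -0.25 ± 0.05 (0.00282). The other, dimmer Nfkbib probe set was at 0.03 ± 0.06 and did not pass. Slc35b4 was lower by -0.29 ± 0.05 (limma, adjusted p = 0.000780) among 2 higher and 2 lower of 31 SLC35 probe sets. The other Slc35b4 probe sets were at -0.16 ± 0.07 and -0.17 ± 0.06 and did not pass. Of 16 probe sets of SUMO proteases 3, all of Senp2, were lower and 1, of Senp8, higher. Srpx2 was lower by -0.44 ± 0.10 (limma, adjusted p = 0.00490). For Fech, the last enzyme of haem synthesis, 1 probe set was higher by 0.23 ± 0.05 (limma, adjusted p = 0.00597). The other Fech probe sets were at 0.15 ± 0.06, 0.05 ± 0.05 and 0.07 ± 0.07 and did not pass. That at 0.05 was about as bright as the one that passed. Of complex I assembly factors and uroplakins none passed, 0 of 21 and 0 of 5 probe sets, with 3 and 0 at an unadjusted p under 0.05.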

How the data were processed

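Per the labels' protocols, biotin-labelled cRNA was made from 1 µg of total RNA, and the submitters' processing notes name RMA and the affy package, with versions not given in the sources used here. The authors deposited log2 values, 1 per probe set and array, and whether all 12 arrays were normalized together is not stated. Of 45101 probe sets, 64 were controls, and the other 45037 entered the fit whatever their brightness. Symbols came from the platform annotation, updated through gene identifiers of GRCm38.p6. No scan date or other batch is given.

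In R 4.3.3 with limma 3.58.1, lmFit fitted the 4 group means (8 residual degrees of freedom, 4.25 prior) and eBayes moderated the variances. Tests are two-sided, with Benjamini-Hochberg adjustment over all probe sets at 0.05. The fit was tested on simulated data. Precision rests on how few arrays there are, with a median SE of 0.0663 for the averaged tissue difference and 0.0938 for a genotype difference in cortex. P-values measure the spread between these arrays, and cortex and hippocampus share their mice.

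The genes, gene lists and tests were chosen with earlier results of these data known. All 10 genes are named in every probe set. From the lists, up to 3 genes with the smallest p in the tissue comparison and 2 in a genotype comparison could be named, or the 1 with the smallest p where none passed. Also named are App, the genes next to the 10 and the 3 most and 3 least like Timmdc1. The lists cover complex I assembly, Notch glycosylation, uroplakins, relatives of Ccdc80, SLC35 transporters, intraflagellar transport, NF-κB, SUMO proteases and haem synthesis. Marker lists cover choroid plexus, leptomeninges, endothelium, ependyma, microglia, hippocampal and neocortical neurons, 1 probe set per gene (the brightest).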

Additional observations from a re-analysis of the deposited data

How the results depend on the processing

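The count of 8 member probe sets called between the tissues was 7 with a replicate block of genotype and number, 9 with only probe sets at a mean of at least 5, with an intensity trend or after repeated quantile normalization, and 6 with arrays centred on their median. It was 4 without APPsα-DM cortex 2 and APLP2-KO cortex 3, the cortex arrays highest in Ttr (a setting chosen after seeing the data), and 5 to 7 without single arrays, lowest without APLP2-KO cortex 1. Within APPsα-DM the count of 1 became 2 with the trend and with only the 6 arrays of that genotype, and 1 to 2 without single arrays, 2 without APLP2-KO hippocampus 3 or APPsα-DM hippocampus 1. Within APLP2-KO the count of 4 was 4 with the replicate block and 2 to 6 without single arrays: 2 without APLP2-KO cortex 1, APLP2-KO cortex 2, APLP2-KO hippocampus 2 or APLP2-KO hippocampus 3. The cause was not tested. None of the 144 recomputed values of the 8 called probe sets changed direction, 26 lost the call, and Nfkbiz probe set 1, Ccdc80 probe set 1 and Cldnd1 probe set 2 kept it in all 18 settings, with an adjusted p (limma) of at most 0.000136, 0.00404 and 0.0218. Nfkbiz probe set 2 (0.0575) and Ccdc80 probe set 2 (0.0706) lost it only without the cortex arrays highest in Ttr.

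The replicate numbers were taken to pair cortex and hippocampus arrays where every same-numbered pair correlated over 0.1 in its deviations over probe sets. All 3 APLP2-KO pairs did (r = 0.109, 0.131 and 0.155, against at most 0.023 for other numbers). The 3 APPsα-DM pairs did not (0.079, 0.019 and 0.037, against at most 0.036 for other numbers). Deviations were taken from the means of 3 arrays, so the correlations for other numbers are not an independent baseline. By this rule the block fits 1 genotype and not both, which does not show which arrays share a mouse. It ended the averaged call of Senp7 probe set 3 (limma, adjusted p = 0.0822) and of none of the other 7. Deviations of same-numbered arrays of the 2 genotypes correlated at -0.255 to 0.206. For the genotype difference, the replicate block counted 20 member probe sets in cortex and 18 in hippocampus whose 3 same-numbered differences had 1 sign, against 17 and 14 without overlap. Arrays without overlap give 1 sign in any pairing, so the block counts could not fall below 17 and 14. Nothing is read from them. Without single arrays the counts without overlap were 17 to 21 and 14 to 19, and leaving out an array could not lower them. Of 459 recomputed genotype differences, 455 moved by less than 1 SD and 0 of those without overlap changed sign. Where arrays were left out, a difference without overlap could not change sign, so nothing is read from that 0.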
